A study of Caenorhabditis elegans with 2 samples.

Results

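The 10 genes described here encode parts of the Wnt pathway of Caenorhabditis elegans that lie inside the cell, though not all of them. They are the Dishevelled genes mig-5, dsh-1 and dsh-2, the beta-catenin genes bar-1, hmp-2, wrm-1 and sys-1, the TCF gene pop-1, the Nemo-like kinase gene lit-1 and the Axin gene pry-1. They were taken by name, and all 10 were found among 19973 nuclear protein-coding genes. Their chromatin was examined in ChIP-seq of MAB-5, an Antennapedia-type Hox protein, fused to eGFP. The material was whole embryos of mixed stage and mixed sex from strain OP27, which carries unc-119(ed3) on chromosome III and the integrated transgene wgIs27. There were 2 biological replicates in 1 group, so no condition was compared with another. Because whole animals were used, binding in a few cells and weak binding in many cells cannot be told apart. The labels are not of one voice on the antibody, for which 1 field gives mab-5 and another the eGFP fusion.

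In Wnt signalling, Dishevelled proteins relay the signal from Frizzled receptors, Axin and its partners hold beta-catenin down, and beta-catenin with a TCF protein sets the transcription of target genes. C. elegans divides these tasks among separate beta-catenins: BAR-1 acts in the canonical pathway, HMP-2 at cell junctions, and WRM-1 and SYS-1 in the pathway that makes sister cells differ. WRM-1 and the kinase LIT-1 drive POP-1 out of the nucleus, and SYS-1 is its coactivator. mab-5 itself lies downstream in one well-known case, since a Wnt signal through BAR-1 switches it on in the QL neuroblast.

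Each gene was given a window from 5000 bp upstream of its start to its end, and the summits (the highest points) of deposited peaks within it were collected. The sequences around 5 of these summits carry the contrasts described in the following paragraphs. The genes mig-5 and dsh-1 had a summit in the authors' thresholded list. The dsh-2 summit lay as close to its start as that of mig-5 but was not listed, the wrm-1 summit ranked high in replicate 1 alone, and the bar-1 summit sat at the gene start with a low value. Each is the plus strand of build ce11 (WBcel235), 201 bp with the summit at base 101, at chrII:8185115-8185315 for mig-5, chrII:5222998-5223198 for dsh-1, chrII:5081252-5081452 for dsh-2, chrIII:5721583-5721783 for wrm-1 and chrX:7170532-7170732 for bar-1. Capitals mark matches, on either strand, to TGATNNAT, the composite site of Hox and PBC proteins. TAATTA (a homeodomain site) and CTTTGAT (a TCF site) were also searched and had no match in these 5 windows.
mig-5: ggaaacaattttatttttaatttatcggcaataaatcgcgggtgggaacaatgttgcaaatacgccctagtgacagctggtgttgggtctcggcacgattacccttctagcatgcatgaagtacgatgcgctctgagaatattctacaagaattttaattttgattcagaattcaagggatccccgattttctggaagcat
dsh-1: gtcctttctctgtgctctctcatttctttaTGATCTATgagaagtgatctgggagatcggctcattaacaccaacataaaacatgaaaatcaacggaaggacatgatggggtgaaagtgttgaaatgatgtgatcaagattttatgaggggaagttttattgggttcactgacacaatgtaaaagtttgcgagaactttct
dsh-2: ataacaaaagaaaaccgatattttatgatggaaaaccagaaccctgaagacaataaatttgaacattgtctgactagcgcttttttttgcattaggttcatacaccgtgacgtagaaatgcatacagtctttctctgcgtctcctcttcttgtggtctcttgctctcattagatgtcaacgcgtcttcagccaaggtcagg
wrm-1: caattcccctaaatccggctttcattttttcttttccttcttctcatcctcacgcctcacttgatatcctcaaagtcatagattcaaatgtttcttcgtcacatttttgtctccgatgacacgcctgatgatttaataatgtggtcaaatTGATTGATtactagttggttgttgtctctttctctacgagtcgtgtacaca
bar-1: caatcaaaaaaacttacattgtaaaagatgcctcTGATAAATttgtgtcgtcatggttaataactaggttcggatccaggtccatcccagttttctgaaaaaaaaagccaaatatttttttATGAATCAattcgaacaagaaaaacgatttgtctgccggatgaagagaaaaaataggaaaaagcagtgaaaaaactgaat

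The values used here are the signal values that the authors gave each peak. No source used here states their scale, and the read depth is unknown, so values were compared only within a list and replicates were set side by side by rank. The pooled list and each replicate's list held 30000 relaxed peaks, which include background, and the thresholded list held 502, of which 481 were nuclear. The lowest signal value in the thresholded list was 34.3.

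Of the 10 genes, 4 had a summit of the thresholded list in their window, against 4.36% of all genes. These were sys-1, mig-5, hmp-2 and dsh-1, with signal values of 77.2, 54.0, 42.4 and 39.4. The gene windows were longer than usual, with a median of 9.68 kb in the 10 genes and 7.03 kb in all genes, and the difference was not tested because the genes were chosen with earlier results known. For mig-5 and dsh-1 the gene's own start was also the nearest to the listed summit, 2 of 10 genes against 1.95% of all genes. The sys-1 and hmp-2 summits were nearer to the starts of other genes.

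**Figure D1:**
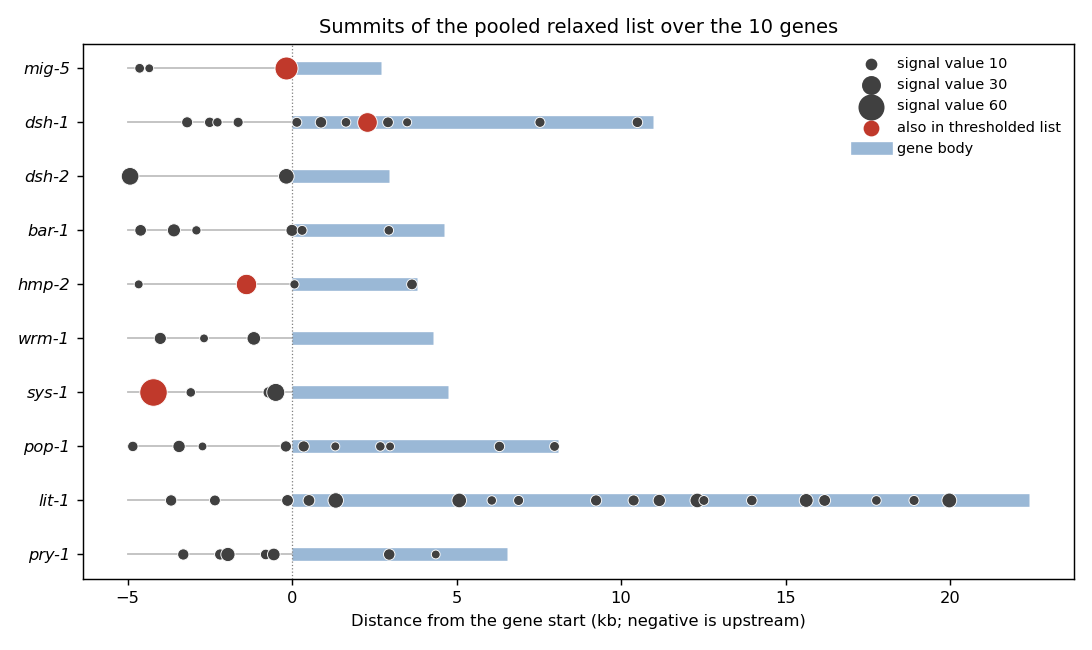
Summits of the pooled relaxed list along the 10 genes, with distance from the gene start in kb on the horizontal axis (negative is upstream) and 1 row per gene. Blue bars are gene bodies, grey lines the 5 kb upstream, the area of a point grows with signal value, and red points are also in the thresholded list. The 4 red points lie at mig-5, dsh-1, hmp-2 and sys-1, and lit-1 carries 19 summits, most of them inside the gene.

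Among the Dishevelled genes, mig-5 had the strongest summit. mig-5 (II, 8182323 to 8185023, minus strand) is required, among other things, for the migration of the Q neuroblast descendants. Its listed summit at 8185215 ranked 136 of 30000 in the pooled list, 245 in replicate 1 (signal value 17.6) and 173 in replicate 2 (signal value 34.2). The 2 replicate summits lay 19 bp apart. It sat in the intergenic space shared with the divergent gene cct-1, which encodes a chaperonin subunit, 192 bp upstream of mig-5 and 228 bp upstream of cct-1. The mig-5 start was thus only slightly the nearer. The 2 other pooled summits of the window lay in an intron of T05C12.8, with signal values of 9.65 and 7.94 and ranks of 21025 and 29922.

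dsh-1 (II, 5214400 to 5225384, minus strand) differed from mig-5 in that its listed summit was intronic. The summit at 5223098 lay 2286 bp downstream of the start, in an intron of 2791 bp, and was at the identical base in both replicates. It ranked 322 in the pooled list and 272 in replicate 2 (signal value 29.6), but 1465 in replicate 1 (signal value 10.5). The replicates thus shared the place of this summit and not its standing. The same intron held 2 more pooled summits, with signal values of 11.8 and 8.34. In all dsh-1 had 12 pooled summits, of which 8 lay inside the gene, and the other 11 had signal values from 8.34 to 13.4.

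dsh-2 (II, 5078233 to 5081174, minus strand), which acts in asymmetric divisions, had 2 pooled summits and none in the thresholded list. The summit 178 bp upstream of its start, at 5081352, had a pooled signal value of 25.0 and rank 1204. It was present in both replicates, with rank 1444 in replicate 1 (signal value 10.6) and 14275 in replicate 2 (signal value 8.49). The stronger summit of the window, at 5086103, had a signal value of 31.8 and rank 611, just short of the thresholded list. It lay 4929 bp upstream of dsh-2, in the 3′ UTR of txt-9 and 318 bp from the start of that gene. Its ranks were 22726 in replicate 1 and 1456 in replicate 2, so the replicates differed in which of the 2 dsh-2 summits was the stronger.

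The 4 beta-catenin genes ranged widely, with the highest maximum of the 10 windows in sys-1 and the second lowest in bar-1. sys-1 (I, 9980063 to 9984794, minus strand) had a listed summit at 9989016 that ranked 51 in the pooled list, 82 in replicate 1 (signal value 26.4) and 59 in replicate 2 (signal value 50.5). Only 0.280% of all genes had a higher maximum in the pooled list. This summit was, however, 4222 bp upstream of sys-1 and lay between the divergent histone genes his-67 and his-68, 253 and 116 bp upstream of their starts. The summit nearest to sys-1 itself was at 9985294, 500 bp upstream, with a signal value of 33.1 and rank 553, also just under the lowest listed value. Near that place replicate 2 had a summit of rank 2688, and the closest one of replicate 1 lay 154 bp away with rank 706.

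hmp-2 (I, 14738882 to 14742671, plus strand), the beta-catenin of adherens junctions, had a listed summit at 14737482 with a pooled rank of 266. The replicates ranked it 599 (signal value 13.6) and 254 (signal value 30.1), with their summits 89 and 5 bp from the pooled one. It lay 1400 bp upstream of hmp-2 and 220 bp upstream of K05C4.7, a gene on the same strand between the summit and hmp-2. The other 3 pooled summits of hmp-2 had signal values from 8.20 to 11.8. The one nearest to the start of hmp-2 itself, 69 bp downstream, had a signal value of 8.71.

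wrm-1 (III, 5722850 to 5727115, plus strand) had a strong summit in 1 replicate only. Its summit at 5721683, 1167 bp upstream, had a signal value of 19.86 and rank 173 in replicate 1, which placed it among the 502 strongest peaks there. The closest summit of replicate 2 lay 569 bp from the pooled one, which had a signal value of 19.03 and rank 2805. The strongest wrm-1 summit of replicate 2 was another one, at 5718831, 4019 bp upstream, with a signal value of 19.08 and rank 1093. That summit was slightly nearer to the start of arf-1, 3945 bp away. No thresholded summit fell in the window. wrm-1 and lit-1 are on the same chromosome as mab-5, 2.05 and 5.92 Mb from it.

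bar-1 (X, 7166005 to 7170625, minus strand), the beta-catenin through which Wnt signals act on mab-5, had no strong summit. Its 6 pooled summits had signal values from 8.77 to 17.6, and 24.7% of all genes had a higher maximum. The strongest, 3596 bp upstream of bar-1, was slightly nearer to the start of the divergent gene F43E12.1, 3420 bp away. The summit closest to its start, at 7170632 and 7 bp upstream, had a pooled signal value of 14.8 and rank 6593. Replicate 2 had it at rank 3753 (signal value 13.3), while the closest summit of replicate 1 lay 284 bp away. The highest bar-1 summit of replicate 1 ranked 16274, the lowest place among the 10 genes in either replicate. None of the 6 pooled summits was matched in both replicates.

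pop-1, lit-1 and pry-1, which act on or with beta-catenin, had 7 to 19 pooled summits each and none in the thresholded list. pop-1 (I, 2822243 to 2830311, minus strand) had 10 pooled summits with a highest signal value of 15.6, the lowest maximum of the 10 windows. Close to its start there were summits 192 bp upstream and 350 bp downstream, with pooled signal values of 12.9 and 12.7. Replicate 2 had a summit 64 bp from the downstream one with rank 1590 (signal value 16.9), and the closest summit of replicate 1 was 1680 bp from it. The highest pop-1 summit of replicate 1 ranked 5084 and lay 1330 bp upstream.

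lit-1 (III, 13701991 to 13724404, plus strand) is the longest of the 10 genes and held 19 pooled summits, 16 of them in introns. Its intron of 11798 bp alone held 8. The strongest, at 13703315 and 1324 bp downstream of the start, had a pooled signal value of 24.4 and rank 1292. The replicates placed it at 13339 (signal value 5.23) and 5970 (signal value 11.7). The highest lit-1 summit of replicate 1 was another, 19033 bp downstream of the start with rank 586 (signal value 13.6), and the closest summit of replicate 2 was 1011 bp from it. A higher maximum in replicate 1 was found in 5.06% of all genes for lit-1, close to the 5.14% for hmp-2. In replicate 2 the highest was 20044 bp downstream, with rank 1427 (signal value 17.5), and replicate 1 had a summit of rank 12875 at a distance of 77 bp. The replicate 1 and replicate 2 maxima lay in introns of lit-1 but nearer to the start of W06F12.2, 10665 and 9654 bp away. Of the 19 pooled summits, 14 had the lit-1 start as the nearest, and 5 had a partner within 100 bp in both replicates.

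pry-1 (I, 14172828 to 14179360, minus strand) had 7 pooled summits, of which 4 had a partner in both replicates. The strongest, at 14181314 and 1954 bp upstream, had a pooled signal value of 20.7 and rank 2162. Its ranks were 12525 in replicate 1 (signal value 5.38) and 3482 in replicate 2 (signal value 13.6). A second summit 560 bp upstream had a signal value of 16.4 and was matched in replicate 1 alone.

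Put in order by their highest pooled signal value, the genes ran sys-1, mig-5, hmp-2, dsh-1, dsh-2, lit-1, pry-1, wrm-1, bar-1 and pop-1. This order holds for the whole window: with only summits whose nearest start is that of the gene, sys-1 had 33.1, below mig-5 at 54.0 and dsh-1 at 39.4, and hmp-2 had 8.71, the lowest of the 10. Over the whole window sys-1 was the highest in each replicate as well, and mig-5 stood above hmp-2 and hmp-2 above dsh-1 in both. The replicates shared their last places with each other, since pop-1, pry-1 and bar-1, in that order, were the lowest of the 10 in both. The pooled order ended instead with wrm-1, bar-1 and pop-1. The middle of the order moved: wrm-1 was second in replicate 1, and dsh-2 and dsh-1 were almost equal there (signal values of 10.56 and 10.52). Among the 502 strongest peaks of replicate 1, 3 of 10 genes had a summit (sys-1, wrm-1 and mig-5), against 4.36% of all genes. For replicate 2 it was 4 of 10 genes (sys-1, mig-5, hmp-2 and dsh-1), against 4.18% of all genes.

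**Figure D2:**
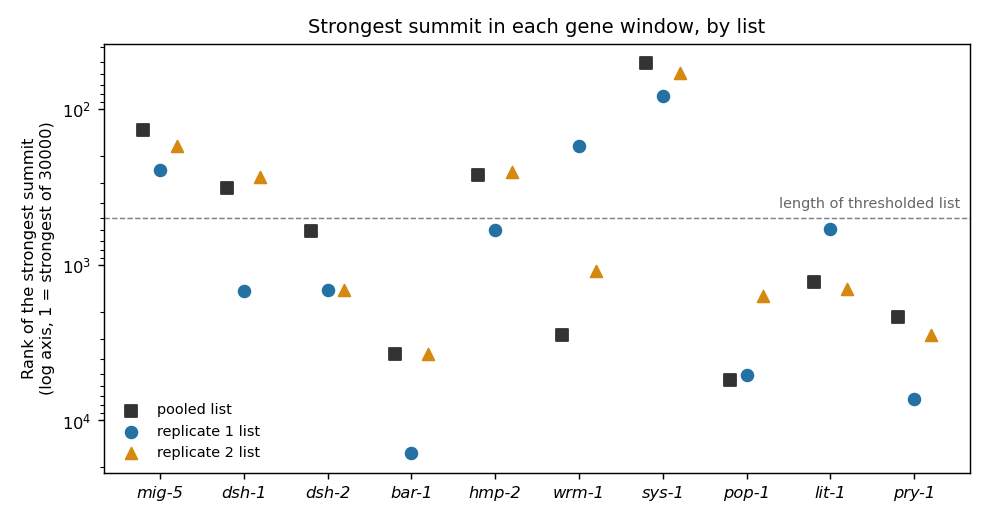
Rank of the strongest summit in each gene window, on a log axis with rank 1 at the top, in the pooled list (squares), replicate 1 (circles) and replicate 2 (triangles). The dashed line marks rank 502, the length of the thresholded list. All 3 points of sys-1 and mig-5 lie above it, wrm-1 has only its replicate 1 point above it, and bar-1 ranges from 3716 in the pooled list to 16274 in replicate 1.

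Weak summits were frequent over the 10 genes. All 10 had at least 1 summit in each relaxed list, against 77.7% of all genes in the pooled list, 84.6% in replicate 1 and 80.6% in replicate 2, so the presence of a relaxed summit is near the background. The windows held 70 pooled summits, 65 of replicate 1 and 66 of replicate 2. Per kb of window, the 10 genes together had 0.578 pooled summits, against 0.291 for all genes together, and the median gene of the 10 had 0.531, against 0.269 for the median of all genes. The values were 0.537 against 0.299 in replicate 1 and 0.545 against 0.294 in replicate 2. Of the 10 genes, 9 stood above the median of all genes in the pooled list, 10 in replicate 1 and 8 in replicate 2. pop-1 and dsh-1 were the densest, with 0.765 and 0.751 pooled summits per kb, a density exceeded by 3.16% and 3.55% of all genes. dsh-2 was the least dense, with 0.252 per kb. This measure was chosen after the values were seen.

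**Figure D3:**
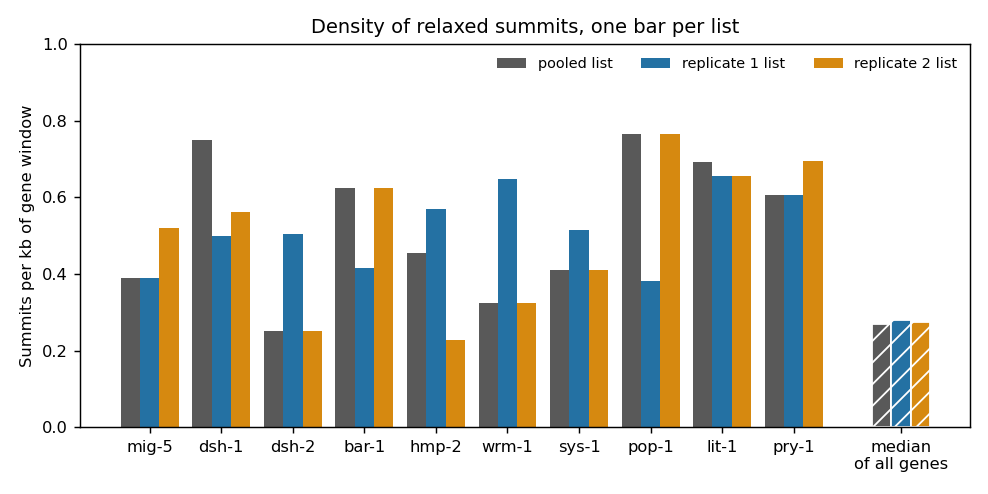
Relaxed summits per kb of gene window (vertical axis) for the 10 genes, with 1 bar each for the pooled list, replicate 1 and replicate 2. Hatched bars at the right give the median over all genes. pop-1 has the highest pooled bar at 0.765, lit-1 has nearly equal bars in the 3 lists, and only the pooled dsh-2 bar and the replicate 2 bars of dsh-2 and hmp-2 fall below the median of all genes.

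Most of these summits were weak. The median signal value of the 70 pooled summits was 12.3, against 11.2 for all nuclear pooled summits. The highest value per gene was nevertheless above the usual one, with a median of 28.1 over the 10 genes and 14.5 over all genes that had a pooled summit. In replicate 1 these medians were 12.1 and 6.58, and in replicate 2 they were 18.3 and 10.9. The maximum was taken over more summits in the 10 genes, whose median was 5 pooled summits per gene, against 2 for all genes, and the part this played was not tested.

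Replicates shared the place of a summit for a minority of the 70. A summit within 100 bp was present in both replicates for 19 (27.1%, against 14.2% of all 29978 nuclear pooled summits), in replicate 1 alone for 15 (21.4% against 20.1%), in replicate 2 alone for 24 (34.3% against 40.8%) and in neither for 12 (17.1% against 24.9%). All 4 thresholded summits were among the 19. The thresholded list came from an irreproducible discovery rate, and these summits hold the same ranks in it as in the pooled list (51, 136, 266 and 322). Whether each listed peak was picked for its own match between replicates was not examined. Their match is therefore not counted as a separate result. The strongest summit of the gene was the same one in both replicates for mig-5, dsh-1, hmp-2 and sys-1. That makes 4 of 10 genes, against 13.3% of 14442 genes with a summit in both lists, a count chosen after the values were seen. They are the same 4 genes that had a thresholded summit, so this count is not separate from that of the thresholded list.

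By place, 33 of the 70 summits lay in introns (47.1%, against 39.4% of all nuclear pooled summits), 30 in intergenic sequence (42.9% against 43.6%), 4 in 3′ UTRs (5.71% against 4.28%), 3 in coding exons (4.29% against 10.9%) and 0 in 5′ UTRs (against 1.75%). Of the 33 in introns, 16 were in lit-1 alone. For 45 of the 70 the nearest gene start was that of the gene itself. A pooled summit lay within 500 bp upstream of the start in 6 of 10 genes, against 22.3% of all genes, a distance chosen after the values were seen. These genes were mig-5 at 192 bp, dsh-2 at 178 bp, bar-1 at 7 bp, sys-1 at 500 bp, pop-1 at 192 bp and lit-1 at 142 bp. sys-1 lay at the very limit, and pry-1, at 560 bp, lay just past it. Of these 6 summits, only that of mig-5 was itself in the thresholded list. Those of mig-5 and dsh-2 had a partner within 100 bp in both replicates. Those of bar-1, sys-1 and pop-1 had one in replicate 2 alone, and that of lit-1 in replicate 1 alone.

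The Hox and PBC composite site TGATNNAT was about as frequent at these summits as at others. It occurred within 100 bp of 11 of the 70 (15.7%), against 15.3% of all nuclear pooled summits, searched on both strands in windows of equal length. lit-1 and bar-1 had 3 summits with it each, sys-1 had 2, and dsh-1, dsh-2 and wrm-1 had 1. Of the 4 thresholded summits only that of dsh-1 held it, against 28.7% of the 481 listed nuclear summits, and the mig-5 window printed here held none. TAATTA occurred at 8 of the 70 (11.4% against 11.6%) and CTTTGAT at 3 (4.29% against 3.38%). Matches can overlap, since the letters TGAT end CTTTGAT and open TGATNNAT, and TAATTA can share letters with the end of TGATNNAT. A match is a description of the sequence and not a site. The median GC content of the 70 windows was 32.6%, against 32.8% of all nuclear pooled summits.

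The 10 genes were set beside 33 further Wnt pathway genes, listed by their known roles. Of these 33 genes, 8 had a thresholded summit in their window (24.2%, against 4.36% of all genes), namely 1 of 5 ligand, 3 of 7 receptor, 1 of 2 secretion, 1 of 3 adhesion and 2 of 7 downstream genes. They were the ligand gene cwn-1, the receptor genes lin-17, mom-5 and cam-1, the Porcupine gene mom-1, the cadherin gene hmr-1 and the downstream Hox genes mab-5 and egl-5. hmr-1 encodes the partner of HMP-2 at junctions, and its highest summit had a pooled signal value of 36.4 and rank 410. As for sys-1 and hmp-2, the strongest summits of mom-5, cam-1, mom-1 and hmr-1 were nearer to the start of another gene. A thresholded summit was found in 4 of the 10 genes and in 0 of 9 other intracellular genes. The highest value among these 9 was 27.5, in the window of gsk-3, which encodes the kinase that works with Axin. That summit lay 3215 bp upstream of gsk-3 and was nearer to the start of Y18D10A.4. The median of the highest pooled value was 28.1 for the 10 genes, 46.7 for 2 secretion genes, 27.5 for 3 adhesion genes, 27.0 for 7 receptor genes, 25.9 for 7 downstream genes, 18.1 for the 9 other intracellular genes, 17.2 for the 4 ligand genes with a pooled summit and 21.4 for the 32 of 33 that had a pooled summit. The Hox genes mab-5 and egl-5 were the highest of the 33, at 236 and 225. Whether the transgene wgIs27 of the strain had a part in the signal at these genes was not tested. With so few genes in each list and no test, these values do not show that the lists differ.

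**Figure D4:**
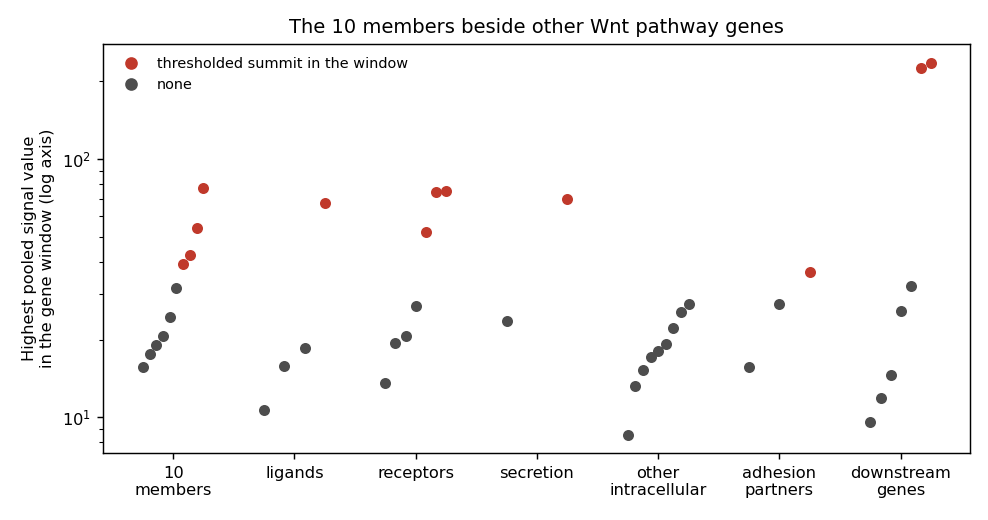
Highest pooled signal value in the window of each gene (vertical log axis), for the 10 genes at the left and for 6 lists of other Wnt pathway genes. Red points have a thresholded summit in the window and dark points have none, and lin-44, which had no pooled summit, is not drawn. The 10 genes run from 15.6 to 77.2, and the 9 other intracellular genes, all dark, end at 27.5.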

How the data were processed

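The authors mapped eGFP-MAB-5 by ChIP-seq in 2 replicates of mixed-stage embryos. Per the deposited file descriptions, relaxed peak lists came from each replicate and from the replicates pooled, all set against a control, and an irreproducible discovery rate (IDR) gave the thresholded list. Peaks carry a signal value computed by the authors, their measure of enrichment. Its scale, the peak caller and the aligner are not stated in any source used here. The 4 ce11 lists were used with WBcel235 and the gene models of Ensembl release 115, and symbols came from the RefSeq table of that assembly. The ce10 lists were not used, as no coordinates were converted.

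A summit counted for a gene when it lay from 5000 bp upstream of the start to the gene end, and for a replicate match when it lay within 100 bp. Motifs were searched within 100 bp of summits. Mitochondrial peaks were left out of counts by gene. No statistical test was made: there is 1 group, and the genes and lists were chosen with earlier results of these data known. The named genes were the 10, the gene starts nearest to described summits, and other pathway genes with a thresholded summit or the highest value of their list. Alternatives were other windows, the nearest start only, a stronger list, single replicates, other match distances and other motif widths. The scripts were tested on simulated data and used Python 3.11.15, numpy 2.4.6, pandas 2.3.3 and matplotlib 3.10.9.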

Additional observations from a re-analysis of the deposited data

How the results depend on the processing

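The count of 4 genes with a thresholded summit was 2 when the window ended 500 bp past the start and began 2000 bp before it (mig-5 and hmp-2), 2 with the nearest gene start only (mig-5 and dsh-1) and 2 with the 251 listed peaks of highest signal value (sys-1 and mig-5, against 2.10% of all genes). The shares of all genes with that window, with 2000 bp upstream to the gene end and with 10000 bp upstream to the gene end were 2.48%, 2.93% and 6.57%, and the last 2 windows gave 3 and 4 of the 10 genes. No thresholded list of a single replicate was used, so the 502 strongest peaks of each replicate took its place. Replicate 1 alone gave 3 genes (sys-1, mig-5 and wrm-1), without hmp-2 and dsh-1, and wrm-1 is not among the 4. Replicate 2 alone gave the same 4 genes. The relaxed lists of the replicates gave 65 and 66 summits, but each relaxed list holds 30000 peaks, so similar counts do not show that the summits are the same. The 70 pooled summits fell to 45 with the nearest gene start only, and were 49 and 84 with 2000 and 10000 bp upstream. TGATNNAT occurred at 5 summits within 50 bp and at 19 within 200 bp, where 8.06% and 27.9% of all nuclear pooled summits held it. The 4 thresholded summits matched in both replicates were 3 within 50 bp and 4 within 200 bp. The highest pooled signal value was lower in 4 of the 10 genes with 2000 bp upstream to the gene end, in 6 with the window around the start and in 4 with the nearest gene start only. With the nearest start the order of the genes turned, with mig-5 (54.0) and dsh-1 (39.4) above sys-1 (33.1) and hmp-2 (8.71) last. No paired analysis was possible because there is 1 group and no test. Read depth is unknown, so no counting error can be given, and 2 replicates limit what can be said of any single summit.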
